A study of Dugesia japonica with 18 samples.

Results

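Heat shock cognate 71 kDa protein is the constitutively made cytosolic HSP70 chaperone, and its name is carried by 4 assembled transcripts (unigenes) of the 267235 in this planarian dataset. The group described here holds 3 of them. They are TRINITY_DN204_c0_g1, picked because its level on day 1 was known to stand out, and the other unigenes of that SwissProt name with at least 1 CPM (counts scaled to a common total per library) in at least 3 of 18 libraries, which are TRINITY_DN6416_c0_g1 and TRINITY_DN12229_c0_g2. The fourth, TRINITY_DN47826_c0_g2, reached 1 CPM in 1 library. The organism is the flatworm Dugesia japonica, cut into Head, Trunk and Tail and sampled on days 0, 1, 3, 5, 7 and 10. Each fragment and day is 1 mRNA library from a pool of 10 to 20 animals, enriched for polyA RNA. The labels name no strain, treatment or age, and do not say what day 0 is relative to the cut.

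HSP70 proteins bind exposed stretches of unfolded protein and release them in a cycle driven by ATP. J-domain proteins bring clients and start ATP hydrolysis, nucleotide exchange factors reset the cycle, and bridging proteins such as STIP1 pass clients on to HSP90. In many animals some HSP70 genes are on at all times and others are switched on by stress, and a name taken from a best database match does not say which kind a gene is.

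Library totals were 17547716 to 21229980 counts, and the detection floor of 3 counts corresponded to 0.107 to 0.252 CPM. One unannotated unigene took 13.0 to 32.2% of the counts in Head, 21.9 to 26.1% in Trunk and 41.2 to 49.6% in Tail. Values are therefore CPM after TMM scaling unless stated, a correction for unequal makeup whose factors were 1.16 to 1.51 in Head, 0.917 to 1.07 in Trunk and 0.679 to 0.893 in Tail. Rhodopsin, a photoreceptor gene, averaged 92.9 CPM in Head, 2.31 in Trunk and 2.50 in Tail, and the posterior gene php-3 averaged 4.82, 13.7 and 33.3 CPM in the same order, so these markers followed the fragment labels. As these are whole fragments, fewer cells of a type and less RNA per cell cannot be told apart.

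The database matches of the copies differ. TRINITY_DN204_c0_g1 matches the mouse protein in SwissProt, and in the larger nr database it matches heat shock protein 70-1 of Dugesia japonica itself. TRINITY_DN6416_c0_g1 matches the Chinese hamster protein and, in nr, a hypothetical protein of the blood fluke Schistosoma japonicum. TRINITY_DN12229_c0_g2 matches the orangutan protein and has no nr match in the table. The KEGG database entry K03283 is given to TRINITY_DN204_c0_g1 and 21 unigenes in all, but TRINITY_DN6416_c0_g1 and TRINITY_DN12229_c0_g2 have no KEGG entry. The nr name heat shock protein 70-1 is carried by 8 unigenes, of which 3 besides TRINITY_DN204_c0_g1 passed the CPM limit: TRINITY_DN28122_c0_g1 at 2.49 to 4.29 CPM, TRINITY_DN12229_c0_g1 at 0.958 to 4.46 and TRINITY_DN1168_c0_g2 at 0.892 to 2.23. The other 4 had 42 to 231 counts summed over all libraries. Reads from near-identical copies may be shared between unigenes, so the split among them is uncertain.

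TRINITY_DN204_c0_g1 was highest on day 1 in every fragment. On days 0, 1, 3, 5, 7 and 10 it had 616, 2330, 477, 558, 420 and 917 CPM in Head. In Trunk it had 788, 2892, 582, 798, 697 and 988 CPM on the same days. In Tail it had 582, 3311, 543, 549, 391 and 915 CPM. The 3 day 1 libraries lay apart from the 15 others, and in each fragment day 10 came next. Day 7 was lowest in Head and Tail, and day 3 was lowest in Trunk.

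The raw counts behind these levels were large, so counting error is small beside the differences between days. On day 1 the unigene had 65332 counts in Head, 59416 in Trunk and 51871 in Tail. On day 0 it had 14618 counts in Head, 15410 in Trunk and 6928 in Tail. Day 1 over day 0 was 3.78-fold in Head, 3.67-fold in Trunk and 5.69-fold in Tail. Day 1 over day 10 was 2.54-fold in Head, 2.93-fold in Trunk and 3.62-fold in Tail. Scaled by library totals alone, day 1 over day 0 was 4.72-fold in Head, 3.64-fold in Trunk and 6.96-fold in Tail. Tail had the greatest ratio on both scales, with 1 library on each side of every ratio, and whether the fragments differ in it was not tested.

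**Figure D1:**
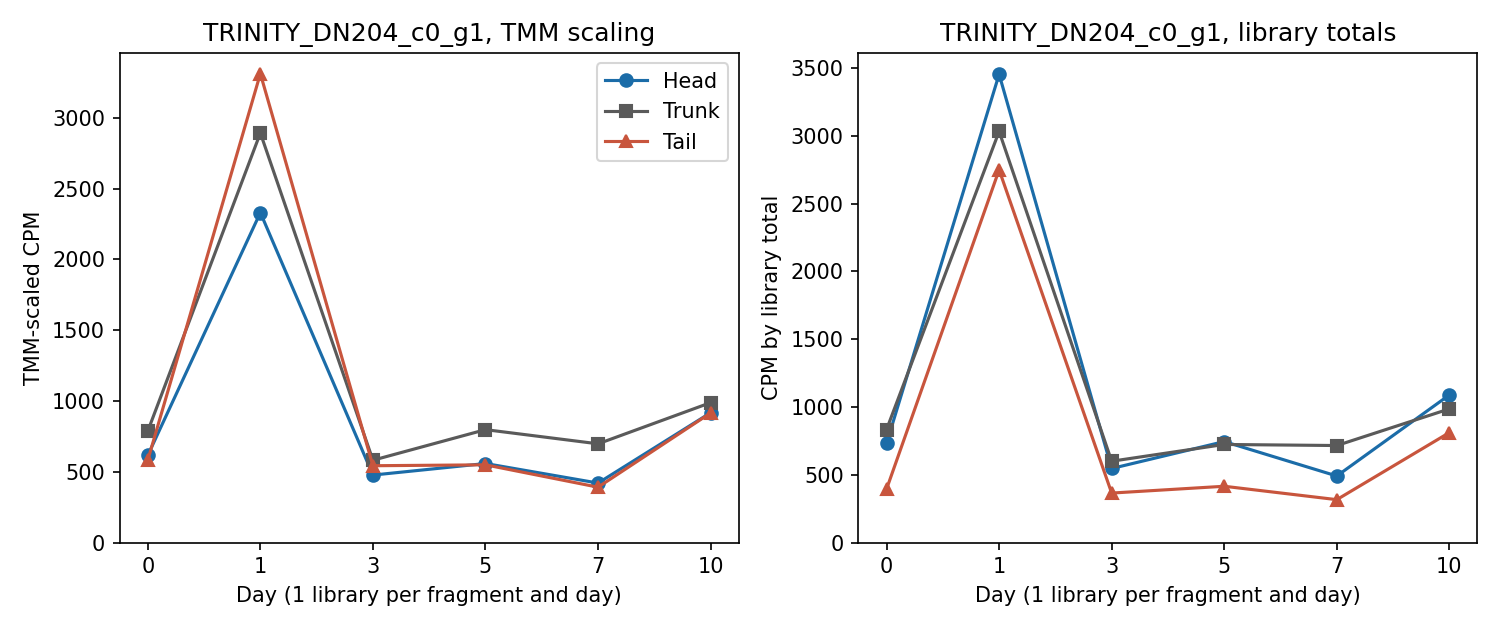
CPM of TRINITY_DN204_c0_g1 (vertical axis) by day (horizontal axis, evenly spaced) in Head, Trunk and Tail, with 1 library per point, after TMM scaling on the left and by library totals on the right. Day 1 is the highest point of each line on both scales, but Tail is highest on day 1 after TMM scaling (3311 CPM) and Head is highest by library totals (3455 CPM).

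Averaged over the 3 fragments, the level was 2845 ± 492 CPM on day 1 (SD, n = 3 fragments), 940 ± 41.5 on day 10, 662 ± 110 on day 0, 635 ± 141 on day 5, 534 ± 53.0 on day 3 and 503 ± 169 on day 7. The ranges of day 1 and day 10 did not overlap, nor did those of day 10 and day 0. From day 0 downward each neighbour in this order overlapped the next. By library totals day 1 stayed apart at 3079 ± 355 CPM, whereas day 10 at 962 ± 140 CPM overlapped day 0 at 654 ± 230 CPM.

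In the fit of fragment plus day across all 23616 tested unigenes, the log2 difference from day 0 was 2.12 ± 0.15 on day 1 (SE), −0.30 ± 0.15 on day 3, −0.068 ± 0.15 on day 5, −0.42 ± 0.15 on day 7 and 0.52 ± 0.15 on day 10. Ranked by day 1 difference, the unigene was number 156 of 23616. No p-value is given for it, since it was picked for this pattern. The day 1 difference lay between 1.91 and 2.31 under the other scalings, filters and subsets of libraries, and the day 10 difference between 0.49 and 0.63. The Head day 1 library had the lowest share of the most abundant unigene (13.0%) and the highest TMM factor (1.51), and without it the day 1 difference was 2.19 ± 0.16.

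Between fragments, TRINITY_DN204_c0_g1 was highest in Trunk in the fit, and the order of Head and Tail changed with the scaling. Without day 1 it averaged 598 ± 194 CPM in Head, 770 ± 150 in Trunk and 596 ± 193 in Tail (SD, n = 5 days). The fitted log2 difference was −0.39 ± 0.10 for Head minus Trunk, −0.089 ± 0.10 for Head minus Tail and 0.30 ± 0.10 for Trunk minus Tail. By library totals Head minus Tail turned to 0.62, and by totals that leave out the most abundant unigene it was 0.17. Trunk stayed above Tail under every alternative, at 0.095 (SE 0.13, days 0 to 3 only) to 0.71. Head minus Trunk lay between −0.46 and −0.024 (SE 0.094, totals without the most abundant unigene). The weakest value of each contrast was smaller than its SE. On day 1 Trunk was not the highest fragment on either scale. By library totals the plain averages over 6 days were 1176 CPM in Head, 1149 in Trunk and 842 in Tail.

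A comparison within a library needs no scaling between libraries. TRINITY_DN204_c0_g2 comes from the same assembly component and matches heat shock protein 70 of Dugesia japonica in nr and Heat shock cognate 70 kDa protein in SwissProt. It was taken as a yardstick after its values had been seen. Counts are not divided by transcript length here, so only changes of the ratio between libraries can be read. On days 0, 1, 3, 5, 7 and 10, the counts of TRINITY_DN204_c0_g1 divided by those of TRINITY_DN204_c0_g2 were 0.239, 1.18, 0.190, 0.255, 0.178 and 0.434 in Head. They were 0.222, 0.855, 0.165, 0.179, 0.180 and 0.264 in Trunk, and 0.146, 1.08, 0.148, 0.174, 0.122 and 0.319 in Tail. The 3 day 1 libraries had ratios of 0.855 to 1.18, against 0.122 to 0.434 in the 15 others.

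**Figure D2:**
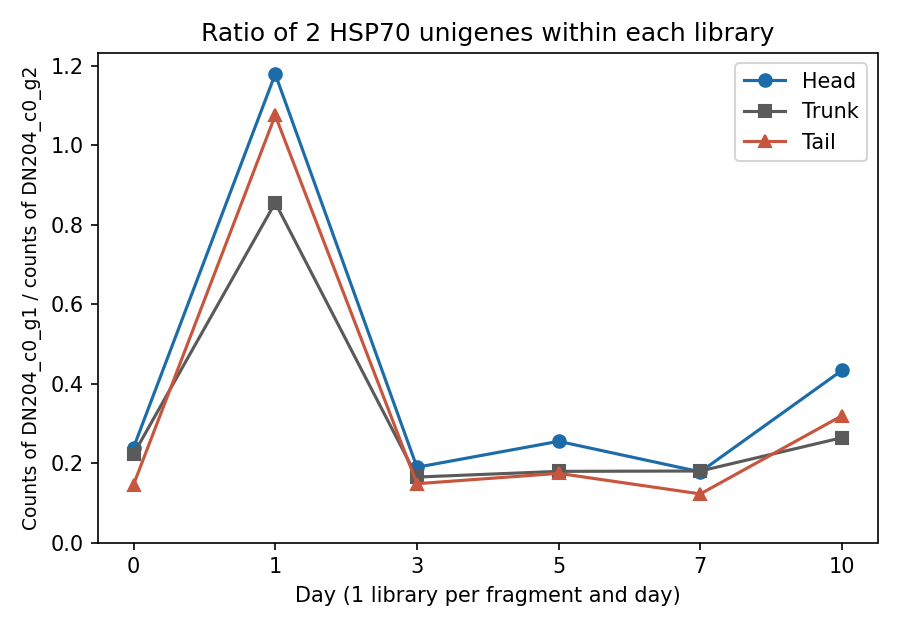
Counts of TRINITY_DN204_c0_g1 divided by counts of TRINITY_DN204_c0_g2 in the same library (vertical axis) by day (horizontal axis, evenly spaced), 1 point per library. All 3 fragments peak on day 1, at 0.855 to 1.18, and the next highest point is Head on day 10 at 0.434.

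The neighbour did not share the day 1 peak. TRINITY_DN204_c0_g2 had 1976 CPM in Head, 3381 in Trunk and 3080 in Tail on day 1, against 2577 in Head, 3544 in Trunk and 3997 in Tail on day 0. The log2 difference was −0.28 ± 0.11 and did not pass (adjusted p = 0.388, edgeR's quasi-likelihood test with Benjamini-Hochberg adjustment). It differed between fragments instead. The level averaged 2289 ± 235 CPM in Head, 3753 ± 383 in Trunk and 3325 ± 420 in Tail (SD, n = 6 days), and Head did not overlap Tail. Head minus Trunk was −0.72 ± 0.08 and Head minus Tail −0.54 ± 0.08, while by library totals Head averaged 2845 ± 190 CPM and Tail 2541 ± 110, so that this second direction flips. Library totals also moved the median of all tested unigenes to 0.72 in Head minus Tail. Relative to the median, TRINITY_DN204_c0_g2 stood there at −0.56 with TMM and −0.55 by library totals.

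TRINITY_DN6416_c0_g1 stayed at a low and even level in every library, from 16.5 to 33.4 CPM. On days 0, 1, 3, 5, 7 and 10 it had 20.2, 18.6, 21.6, 16.5, 18.4 and 21.6 CPM in Head. It had 20.3, 22.3, 21.8, 21.8, 22.5 and 26.6 CPM in Trunk on those days, and 33.4, 23.4, 28.8, 24.1, 29.7 and 30.7 CPM in Tail. Tail was above Trunk, and Trunk above Head, on each of the 6 days, although Trunk overlapped both Head and Tail over all days. By library totals the libraries covered 18.2 to 27.6 CPM and this order was lost.

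For the 2 copies that were tested, a unigene counts as called when its adjusted p in edgeR's quasi-likelihood test is under 0.05. In Head minus Tail 1 of the 2 was called, TRINITY_DN6416_c0_g1, beside 39.2% of all tested unigenes. It averaged 19.5 ± 2.03 CPM in Head, 22.6 ± 2.11 in Trunk and 28.3 ± 3.87 in Tail (SD, n = 6 days). Head minus Tail was −0.54 ± 0.09 (SE; adjusted p = 0.000111, edgeR). Trunk minus Tail was −0.32 ± 0.09 (adjusted p = 0.00833, edgeR), again 1 of the 2 copies, beside 36.7% of all unigenes. Head minus Trunk was −0.22 ± 0.09 (adjusted p = 0.0533, edgeR) and not called. Thus 0 of the 2 copies passed there in edgeR and 0 in DESeq2, beside 42.3% of all unigenes, and 1 of the 2 had an unadjusted p under 0.05.

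These directions depend on the scaling. By library totals TRINITY_DN6416_c0_g1 averaged 24.2 ± 2.28 CPM in Head, 22.8 ± 2.24 in Trunk and 21.8 ± 3.42 in Tail, and its differences turned to 0.17 for Head minus Tail, 0.072 for Trunk minus Tail and 0.096 for Head minus Trunk, with adjusted p of 0.140, 0.585 and 0.443 in edgeR. Library totals also moved the median of all tested unigenes to 0.72, 0.39 and 0.31 in those contrasts. Relative to that median TRINITY_DN6416_c0_g1 stood at −0.55, −0.32 and −0.21.

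**Figure D3:**
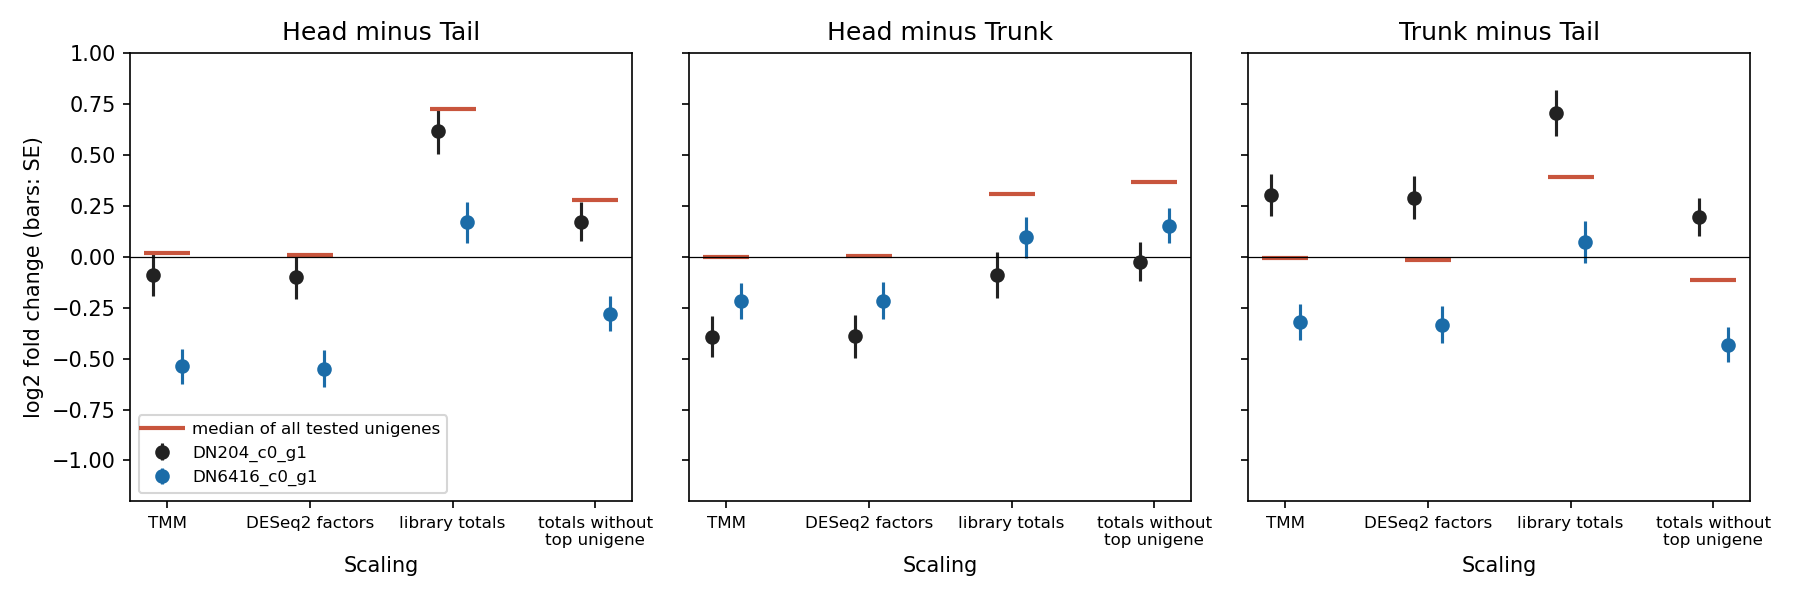
Fitted log2 fold change between fragments (vertical axis) of TRINITY_DN204_c0_g1 and TRINITY_DN6416_c0_g1 under 4 scalings (horizontal axis), with bars for the SE and dashes for the median of all 23616 tested unigenes. TRINITY_DN6416_c0_g1 moves with the median, from −0.54 with TMM to 0.17 with library totals in Head minus Tail.

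Over days TRINITY_DN6416_c0_g1 showed no difference past the threshold. Its day 1 minus day 0 value was −0.17 ± 0.12 (adjusted p = 0.701, edgeR), where 0.407% of all tested unigenes were called. The F test for any day gave adjusted p = 0.361 in edgeR, and the slope over log2(day + 1) was 0.019 ± 0.034 (adjusted p = 0.836). The test of whether slopes differ between fragments gave adjusted p = 0.876 in edgeR. These 3 tests called 5.83%, 3.99% and 1.63% of all unigenes. DESeq2 called 0 of the 2 copies in each of them, and neither had an unadjusted p under 0.05 in edgeR.

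TRINITY_DN12229_c0_g2 is the copy nearest to the CPM limit among those that passed, with at least 1 CPM in 12 libraries where 3 were required and 7 to 55 counts per library. It had 2.23, 0.250, 1.32, 0.655, 1.56 and 0.397 CPM in Head on days 0 to 10 in order. It had 1.99, 1.51, 0.561, 1.26, 1.05 and 2.29 CPM in Trunk and 1.68, 2.43, 3.002, 4.08, 0.482 and 0.757 CPM in Tail. The highest library was Tail on day 5 and the lowest Head on day 1, and all 3 fragments overlapped.

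No comparison of TRINITY_DN12229_c0_g2 passed. Head minus Tail was −0.999 ± 0.55 (adjusted p = 0.172), Head minus Trunk −0.51 ± 0.55 (adjusted p = 0.492) and Trunk minus Tail −0.49 ± 0.54 (adjusted p = 0.514), all from edgeR's quasi-likelihood test. Day 1 minus day 0 was −0.80 ± 0.74 (adjusted p = 0.787, edgeR), and the any-day test gave adjusted p = 0.867 in edgeR. With SE this wide, differences of about the size seen for TRINITY_DN6416_c0_g1 were not detectable at this depth.

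TRINITY_DN47826_c0_g2, outside the limit, had 56 counts (2.95 CPM by library total) in Trunk on day 3 and 0 to 8 counts in the other 17 libraries. A single library thus carried it, and it entered no test. Its nr match is Heat shock cognate 71 kDa protein of the Damaraland mole-rat Fukomys damarensis.

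**Figure D4:**
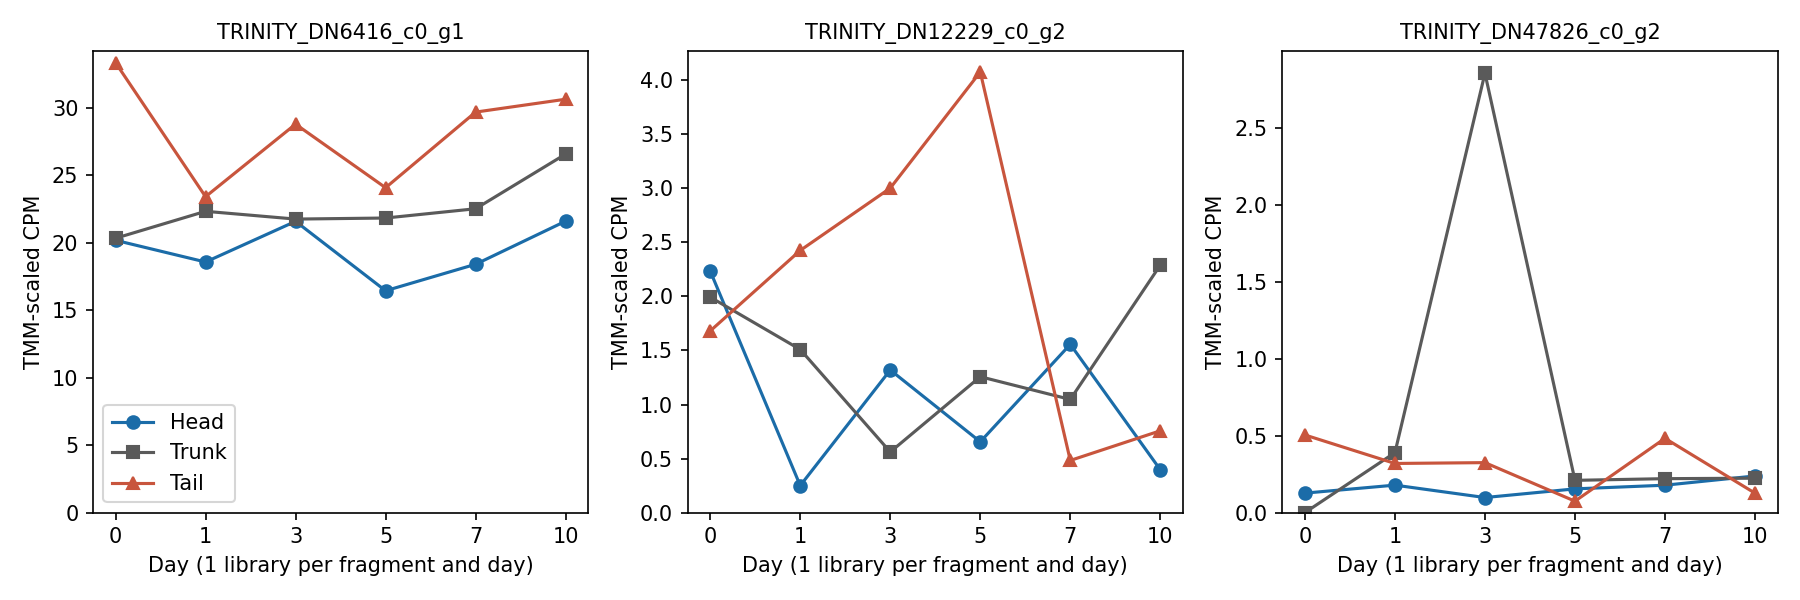
CPM after TMM scaling (vertical axes, each with its own range from 0) by day (horizontal axes, evenly spaced) of the 3 less abundant unigenes of the name, 1 point per library. TRINITY_DN6416_c0_g1 lies between 16.5 and 33.4 CPM, TRINITY_DN12229_c0_g2 between 0.250 and 4.08 CPM, and TRINITY_DN47826_c0_g2 stands up in Trunk on day 3 alone.

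Of the counts assigned to the 3 copies together, TRINITY_DN204_c0_g1 held 92.8 to 99.2% per library (median 96.7%), TRINITY_DN6416_c0_g1 0.702 to 7.05% (median 3.14%) and TRINITY_DN12229_c0_g2 0.0106 to 0.706% (median 0.149%). These are shares of reads and not of molecules, since transcript lengths are not in the table. The share of TRINITY_DN6416_c0_g1 was lowest in day 1 libraries, where TRINITY_DN204_c0_g1 was high.

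Partners and relatives of HSP70, and other heat shock and chaperonin proteins, were followed in 5 lists matched by protein name, with 63 of 82 named unigenes tested. The 63 leave out TRINITY_DN204_c0_g2 and TRINITY_DN1168_c0_g2, whose SwissProt name is Heat shock cognate 70 kDa protein. Their day 1 minus day 0 differences were −0.28 ± 0.11 and −0.32 ± 0.35 (SE), and neither was called. On day 1 against day 0, 9 of the 63 (14.3%) were called, all of them higher, while 0.305% of all tested unigenes were called higher. The median log2 difference was 0.17 over the 63 and −0.0041 over all tested unigenes. By list, 5 of 11 unigenes of the HSP90 system were called and 2 of 24 J-domain co-chaperones. The counts were 1 of 2 in the list of exchange factors and partners, 1 of 10 other HSP70 proteins and 0 of 16 other heat shock, chaperonin and control proteins. In that last list DESeq2 called 2, and 6 had an unadjusted p under 0.05 in edgeR. The list of exchange factors and partners holds Stress-induced-phosphoprotein 1 and Hsc70-interacting protein, and thus no nucleotide exchange factor. The 2.12 of TRINITY_DN204_c0_g1 lay above the 0.69 to 1.68 of the 8 called unigenes other than TRINITY_DN156700_c0_g1, described last.

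Among co-chaperones, DnaJ homolog subfamily B member 4 (TRINITY_DN3609_c1_g2), a cytosolic J-domain partner of HSP70, had 66.0 CPM in Head, 74.8 in Trunk and 87.6 in Tail on day 1, against 34.8 in Head, 31.1 in Trunk and 29.3 in Tail on day 0. The groups did not overlap, and the log2 difference was 1.26 ± 0.14 (adjusted p = 0.00025, edgeR). DnaJ homolog subfamily C member 3 (TRINITY_DN535_c1_g1), which acts in the endoplasmic reticulum in mammals, rose by 0.87 ± 0.13 (adjusted p = 0.00368, edgeR). Stress-induced-phosphoprotein 1 (TRINITY_DN13668_c0_g1), the bridge between HSP70 and HSP90, had 116 CPM in Head, 100.3 in Trunk and 106 in Tail on day 1, against 54.0, 64.5 and 39.8 CPM on day 0 in the same fragments. Its difference was 1.04 ± 0.14 (adjusted p = 0.00122, edgeR). The other member of that list, Hsc70-interacting protein (TRINITY_DN6682_c0_g1), had 0.32 ± 0.11 (adjusted p = 0.306, edgeR).

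In the HSP90 system, Heat shock protein 83 (TRINITY_DN5658_c0_g1), the insect name of cytosolic HSP90, had 1195 CPM in Head, 1142 in Trunk and 1419 in Tail on day 1, against 499.6 in Head, 404 in Trunk and 302 in Tail on day 0. This was the clearest of the called list members, at 1.68 ± 0.15 (adjusted p = 2.1e-05, edgeR). The HSP90 activator AHSA2 (TRINITY_DN1554_c0_g1) rose by 1.34 ± 0.25, the immunophilin FKBP4 (TRINITY_DN3021_c0_g1) by 0.94 ± 0.14 and Endoplasmin (TRINITY_DN2681_c0_g1), the HSP90 of the endoplasmic reticulum, by 0.93 ± 0.14, with adjusted p of 0.0259, 0.00533 and 0.0064 in edgeR. Of the other HSP70 proteins, Hypoxia up-regulated protein 1 (TRINITY_DN1128_c0_g1), a large HSP70 relative of the endoplasmic reticulum, rose by 0.69 ± 0.13 (adjusted p = 0.0223, edgeR). In Trunk its day 1 level of 54.2 CPM was below its highest other day at 55.1 CPM.

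The ninth call is a unigene named Heat shock protein 90 (TRINITY_DN156700_c0_g1), whose SwissProt match is the microsporidian Encephalitozoon cuniculi, a single-celled parasite. It had 209 counts in Head, 601 in Trunk and 4 in Tail on day 1, and 0 counts in all 3 day 0 libraries. Beyond day 1 it reached 127 counts in Trunk on day 7 and 0 to 7 counts elsewhere. Its day 1 level was 7.45 CPM in Head, 29.3 in Trunk and 0.255 in Tail. In those libraries TRINITY_DN204_c0_g1 had 2330, 2892 and 3311 CPM, and by library totals 3455, 3033 and 2750 CPM. Any part of TRINITY_DN156700_c0_g1 in the day 1 levels was not tested. The day 1 call of this unigene was lost under 5 of 14 alternatives.

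Several other members did not pass, among them unigenes with the same or related names as called ones. Another Hypoxia up-regulated protein 1 (TRINITY_DN17385_c0_g2) had −1.30 ± 0.48 (adjusted p = 0.337, edgeR). Another Endoplasmin (TRINITY_DN4132_c0_g2) had −0.25 ± 0.18 (adjusted p = 0.691, edgeR), and Endoplasmin homolog (TRINITY_DN99273_c0_g1) −0.54 ± 0.44 (adjusted p = 0.742, edgeR). Heat shock protein HSP 90-beta (TRINITY_DN5658_c0_g3) had 0.43 ± 0.46 (adjusted p = 0.832, edgeR). Heat shock factor protein (TRINITY_DN14995_c0_g1), the transcription factor of heat shock genes, had 0.62 ± 0.24 (adjusted p = 0.351, edgeR). Endoplasmic reticulum chaperone BiP (TRINITY_DN7420_c0_g1) had 0.16 ± 0.14 (adjusted p = 0.765, edgeR), and mitochondrial Stress-70 protein (TRINITY_DN19066_c0_g1) had −0.23 ± 0.10 (adjusted p = 0.451, edgeR).

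**Figure D5:**
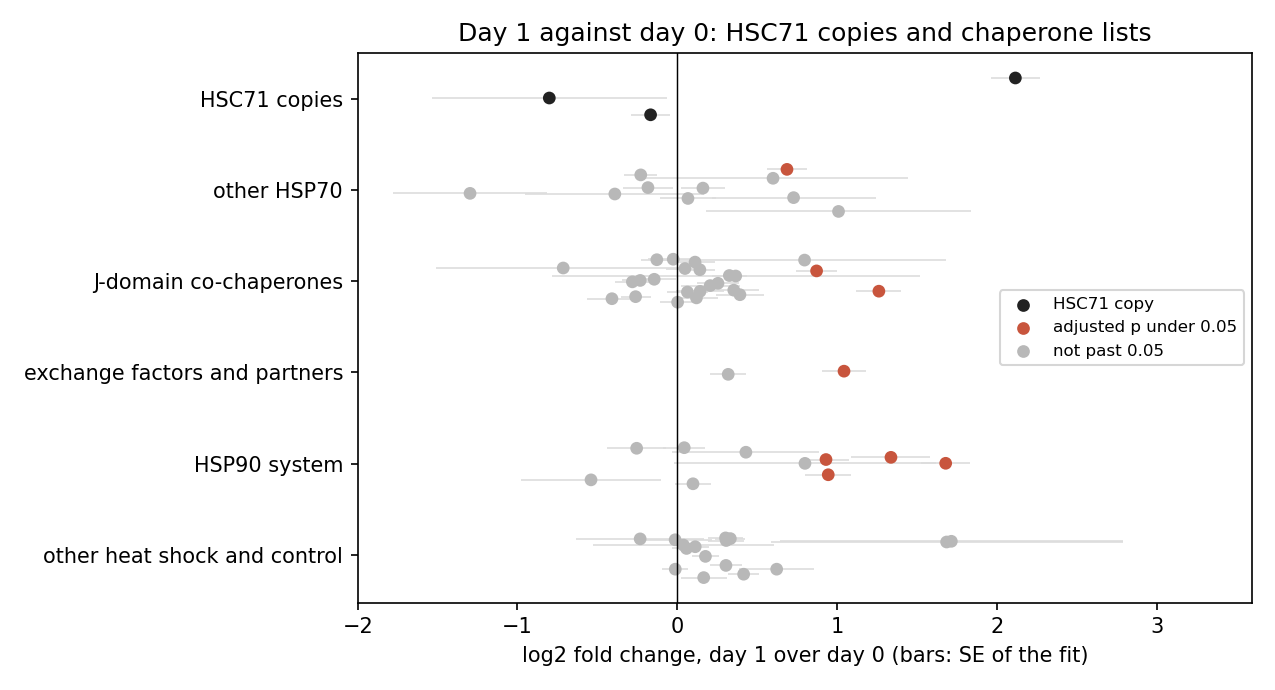
Fitted log2 fold change of day 1 over day 0 (horizontal axis, bars for the SE) of the 3 Heat shock cognate 71 copies and of the tested chaperone unigenes by list (vertical axis, offsets within a list only separate points), with called unigenes in red. TRINITY_DN204_c0_g1 stands at 2.12, the called unigenes lie between 0.69 and 1.68, and TRINITY_DN156700_c0_g1, with 0 counts in all day 0 libraries, is left out.

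The calls rest on 3 libraries a day. Without Tail 2 of the 63 stayed called and without Head 3, while TRINITY_DN5658_c0_g1 and TRINITY_DN3609_c1_g2 stayed called under all 15 alternatives. On the remaining days the same 63 unigenes gave 1 call each on day 3 (1.32% of all unigenes), day 5 (5.45%) and day 10 (1.27%), and 0 on day 7, where 1.22% of all unigenes were called. On day 7, 11 of the 63 had an unadjusted p under 0.05 in edgeR. DESeq2 called 0 of the 63 on day 3, 0 on day 5, 2 on day 7 and 4 on day 10. The edgeR call on days 3 and 5 was the same unigene, DnaJ protein homolog ANJ1 (TRINITY_DN85905_c0_g1), whose SwissProt match is the plant Atriplex nummularia. Its log2 difference was 3.27 ± 0.81 on day 3 and 3.01 ± 0.82 on day 5. The day 10 call was mitochondrial Stress-70 protein (TRINITY_DN19066_c0_g1) at −0.43 ± 0.10.

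Between fragments, 10 of the 63 chaperone unigenes were called higher and 11 lower in Head minus Tail, beside 19.5% and 19.6% of all unigenes. In Trunk minus Tail 27 were higher and 5 lower, beside 18.3% and 18.4% of all unigenes. In Head minus Trunk 5 were higher and 31 lower, beside 19.6% and 22.7%. The median log2 difference of the 63 was −0.19 in Head minus Trunk and 0.21 in Trunk minus Tail, against 0.00017 and −0.0053 over all tested unigenes. These counts depend on the scaling. By library totals 48 were higher and 4 lower in Head minus Tail (median 0.73, against 0.72 over all tested unigenes). On that scale 46 were higher and 1 lower in Trunk minus Tail (median 0.61, against 0.39), and 17 higher and 7 lower in Head minus Trunk (median 0.11, against 0.31). By totals without the top unigene 32 were higher and 5 lower in Head minus Tail (median 0.29, against 0.28). That scale gave 16 higher and 6 lower in Trunk minus Tail (median 0.099, against −0.11), and 22 higher and 7 lower in Head minus Trunk (median 0.18, against 0.37). In TMM scaling TRINITY_DN204_c0_g1 had −0.39 and 0.30 in those contrasts, and TRINITY_DN6416_c0_g1 had −0.22 and −0.32.

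The 5 named unigenes whose profiles were most like that of TRINITY_DN204_c0_g1 all belong to these lists. All 5 are among the list members called on day 1, and TRINITY_DN204_c0_g1 was picked for its day 1 level. The ranking therefore restates the day 1 calls and adds no separate evidence for them. Over 18 libraries, Pearson's r of log2(CPM + 1) was 0.953 for DnaJ homolog subfamily B member 4 (TRINITY_DN3609_c1_g2), 0.904 for Heat shock protein 83 (TRINITY_DN5658_c0_g1), 0.868 for Stress-induced-phosphoprotein 1 (TRINITY_DN13668_c0_g1), 0.828 for FKBP4 (TRINITY_DN3021_c0_g1) and 0.774 for AHSA2 (TRINITY_DN1554_c0_g1). Over the 15 libraries without day 1 the values were 0.684, 0.497, 0.475, 0.441 and 0.182 in the same order, so the likeness rested largely on day 1. All values share the same libraries and scaling factors.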

How the data were processed

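The authors deposited raw counts per unigene for 18 libraries in 1 table, per the file header, with protein database matches for each unigene. Per the submitters' processing notes, FastQC, fastp 0.20.0, Bowtie2 and RSEM were used; settings are not given in the sources used here. RSEM can give fractional estimates, whereas the deposited counts are whole, and whether they were rounded is not stated. Another 18 columns of per-sample values were not used. Of 267235 unigenes 22624 had no count. Tests covered the 23616 that reached 1 CPM or more in 3 or more libraries.

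Counts were scaled by TMM and fitted in R 4.3.3 with the robust quasi-likelihood method of edgeR 4.0.16 (limma 3.58.1), with terms for fragment and day and Benjamini-Hochberg adjustment at 0.05 over all tested unigenes. There is 1 library per fragment and day. The other days therefore stand in for replicates of a fragment and the other fragments for replicates of a day, and with 10 residual degrees of freedom p-values measure deviations between fragments and days mixed with library noise, not the spread between pools or animals. A slope over log2(day + 1), and its difference between fragments, were fitted in separate models. On simulated data for day 1 minus day 0, 89 of 100 2-fold and 100 of 100 4-fold changes were recovered, with 15 false calls among 23616 unigenes. The simulation held no fragment differences, took the spread from the trend over all unigenes, and changed only unigenes averaging over 100 counts. It therefore does not cover unigenes with few counts, such as TRINITY_DN12229_c0_g2, or deviations of a fragment on single days.

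The members, lists and tests were chosen with earlier results of these data known. Contrasts of single days with day 0, the chaperone counts built on them and the correlations without day 1 were chosen after seeing the data. All copies are named. For the lists the rule was to name at most 2 called members per list, direction and comparison. It was followed for single days only, and called list members between fragments and in the slope are not named. Further called list members on day 1, TRINITY_DN204_c0_g2 and members that did not pass were named after their values had been seen. Lists were matched on SwissProt names whatever the species of the match, so they also hold unigenes whose match is a plant protein. Alternatives were the size factors and the test of DESeq2 1.42.0, library totals with and without the top unigene, other filters, models with fewer terms and subsets of libraries. Intervals and floors cover counting error only. Tables and figures used Python 3.11.15, pandas 2.3.3 and matplotlib 3.10.9.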

Additional observations from a re-analysis of the deposited data

How the results depend on the processing

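Of the 2 tested copies, 1 was called in Head minus Tail, 1 in Trunk minus Tail and 0 in Head minus Trunk. With library totals 0 were called in Head minus Tail and 0 in Trunk minus Tail. Trunk minus Tail also gave 0 with no filter and 0 on days 5 to 10 only, and 0 to 1 when a day was left out, the 0 being without day 0. Head minus Trunk gave 1 on days 5 to 10 only and 0 to 1 when a day was left out, the 1 being without day 0. TRINITY_DN6416_c0_g1 carried each of these calls. Its log2 difference reversed with library totals, to 0.17 in Head minus Tail, 0.072 in Trunk minus Tail and 0.096 in Head minus Trunk, and to 0.15 in Head minus Trunk with totals that leave out the top unigene. Its slope over days was −0.021 to 0.081 when a day or fragment was left out, below 0 without day 10 (−0.021) and without Trunk (−0.0056). Under library totals the median of all unigenes shifted as well. Relative to the median under the same scaling, TRINITY_DN6416_c0_g1 stood at −0.56 with TMM and −0.55 with library totals in Head minus Tail. In Head minus Trunk it stood at −0.22 with TMM, −0.21 with library totals and −0.21 with totals that leave out the top unigene. What caused the sign changes of the slope was not tested. The copies called in the tests for any day, slope and slope difference stayed at 0 under all 17, 18 and 13 alternatives.

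Of the 63 chaperone unigenes, 9 were called on day 1, against 2 to 9 when a fragment or day was left out (2 without Tail, 3 without Head), 2 with no fragment term and 7 without the Head day 1 library. The DESeq2 test called 10, of which 8 were among the 9. The count over all unigenes was 96, against 575 with no filter, 222 with the DESeq2 test, 57 without the Head day 1 library, 31 without Head, 18 without Tail and 10 with no fragment term. In Head minus Tail it was 9251, against 17273 with library totals and 5944 on days 5 to 10 only. It ranged from 25 to 4359 for any day (1377), from 2 to 1612 for the slope (942) and from 104 to 971 for the slope difference (385). One library per fragment and day and low counts of TRINITY_DN12229_c0_g2 limit what could be detected. The same-numbered libraries share only a day, and without the day term (no replicate block) no call for the copies between fragments changed.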
